A study of Sus scrofa with 15 samples.

Results

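The comparison covered here is that of LLC-PK1 cells transfected with the Tg3 form of human PKD2 against the same cells transfected with wild-type (WT) human PKD2, which takes 6 of the 15 RNA-seq libraries, 3 in each group. Tg3 carries the nonsense change p.R742X (c.C2224T), so its product ends before the C-terminal tail and also lacks the FLAG epitope placed behind the coding sequence, whereas the WT plasmid codes for the whole tagged protein. Both plasmids share a CAG promoter, a loxP-flanked neomycin cassette and a pig H11 sequence, and both were given transiently, at 3 µg, to a single pig line of renal proximal tubule epithelium that keeps its own PKD genes. RNA was taken from 3 wells per plasmid 48 h later, so the p-values measure the spread between wells of 1 line. The other 9 libraries hold the empty plasmid (NC) and the missense forms Tg1 (p.D511V) and Tg2 (p.L656W). Neither the human transgene nor pig PKD2 was analysed here, so the labels could not be checked against the transfected gene. In the study, the blot for the tag did not cover the Tg3 protein, and qRT-PCR found human PKD2 expression far above NC. The sample titles give WT and Tg3 the same genotype number (3), and the groups were told apart by the name in brackets and by the plasmid label. Whether a library of either group carries the other's label could not be checked.

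PKD2 encodes polycystin-2, a cation channel of the primary cilium and the endoplasmic reticulum that forms a complex with polycystin-1, the product of PKD1, through contacts that include the C-terminal tails of both proteins. The tail also holds an EF hand that binds calcium and a signal that retains the protein in the endoplasmic reticulum. Loss of either polycystin causes autosomal dominant polycystic kidney disease (ADPKD), in which tubule cells proliferate, secrete fluid and form cysts.

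The total count was between 20216200 and 23810062 in the Tg3 libraries and between 20999779 and 22106028 in the WT libraries. Of 24 proximal tubule and renal epithelial markers, 23 were in the table and 22 passed the filter on low counts, with a summed level of 6030 to 6571 CPM (counts scaled to a library total of 1e6, here without TMM factors) in WT and 5909 to 6146 in Tg3. KRT8 made up 2265 to 2357 CPM of the sum in WT and 2288 to 2329 in Tg3. Of the 22, 8 had an unadjusted p under 0.05 in the edgeR test given below, against 2215 of all 11553 genes. For 8 the groups did not overlap, in either direction, against 2370 of all genes. None of the 4 endothelial markers in the table reached a mean of 2 CPM, CDH5 and KDR had no count in any of the 6 libraries, and the leukocyte marker PTPRC was at most 0.0452 CPM. The 6 leukocyte markers in the table, of which 3 were tested, summed to 31.8 to 32.8 CPM in WT and 31.4 to 32.3 CPM in Tg3, with CD3E at 19.8 to 21.7 CPM and CD14 at 7.95 to 8.82 CPM over the 6 libraries. Of 6 fibroblast markers, COL1A2 alone was tested. It was between 916 and 1067 CPM in WT and between 853 and 904 CPM in Tg3, whereas COL1A1, COL3A1, PDGFRA, PDGFRB and LUM stayed near or under 1 CPM.

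WT replicate 2 stood apart from the other WT libraries. The chi-square per degree of freedom over the genes was 25.8 between WT replicates 1 and 2 and 46.6 between replicates 2 and 3, against 5.76 between replicates 1 and 3. Among the Tg3 libraries it was between 2.9 and 10.4. The results are therefore given with and without WT replicate 2, and levels are in CPM normalized by the TMM method unless stated otherwise.

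To find the genes that differed between cells given the Tg3 and the WT plasmid, 11553 genes with a mean of 2 CPM or more were tested with edgeR's quasi-likelihood test. A differentially expressed gene (DEG) had to reach 0.26 on the log2 scale in either direction with a Benjamini-Hochberg adjusted p of at most 0.05. No gene met both (0% of the genes tested), and the smallest adjusted p in edgeR was 0.0532, shared by 6 genes. At an unadjusted p under 0.05, Tg3 was higher than WT for 1112 genes (9.63%) and lower for 1103 (9.55%). All 3 Tg3 libraries were above all 3 WT libraries for 1185 genes (10.3%), and all were below for another 1185 (10.3%). DESeq2 called 116 DEGs on the same genes, 54 of them higher and 62 lower in Tg3. An edgeR model with the replicate number as a block called 111, of which 52 were higher and 59 lower in Tg3. The edgeR results below are from the model without the block unless stated otherwise. Without WT replicate 2, edgeR called 838 genes as higher (7.25%) and 483 as lower (4.18%) in Tg3, but when Tg3 replicate 2 was left out as well it called only 7. The fit that gave 7 had fewer libraries in each group, which also lowers the number of calls. In it 2791 genes had an unadjusted p under 0.05, against 2215 in the test on all libraries. Calls without WT replicate 2 in the lists below keep Tg3 replicate 2, so they leave the replicate numbers unbalanced between the groups. The plot of DEG counts by setting shows that the count turned on this pair of libraries and on the test.

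**Figure D1:**
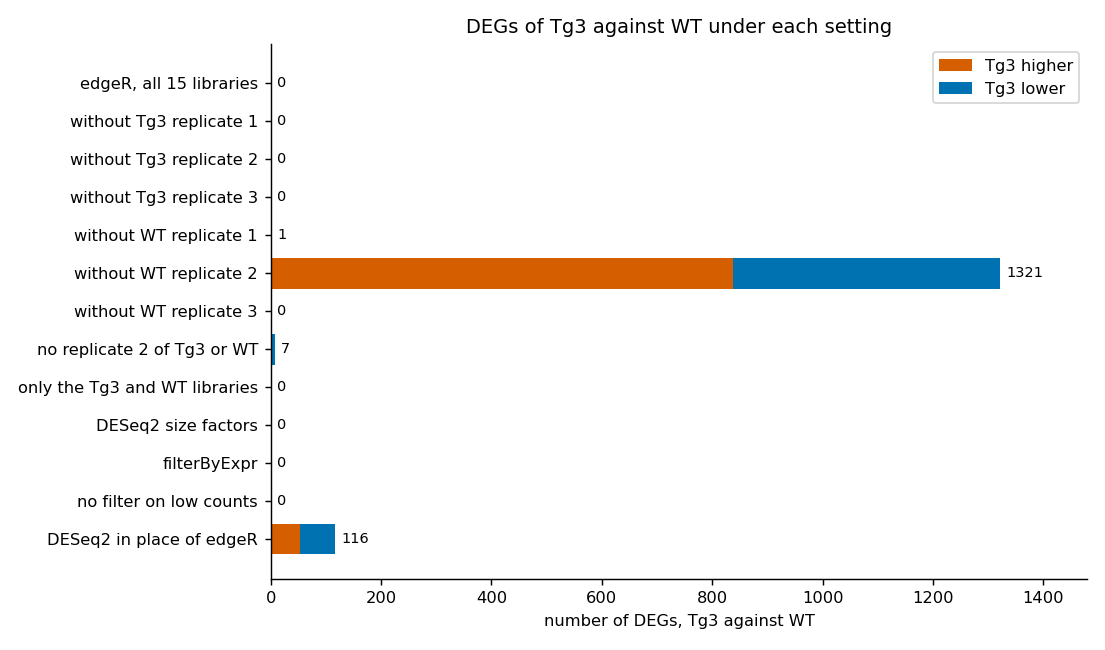
Number of DEGs of Tg3 against WT (horizontal axis) for the edgeR test on all 15 libraries, for each left-out library and for other settings, with genes higher in Tg3 in orange and genes lower in Tg3 in blue. The edgeR test on all libraries gives 0, leaving out WT replicate 2 gives 1321, leaving out replicate 2 of both groups gives 7 and DESeq2 gives 116. The replicate block is not shown.

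The 10 genes with a symbol and the smallest unadjusted p-values in each direction included PWP2, DKC1, POLR1B, RRP12, TSR1 and DDX21 of ribosome production, all higher in Tg3, and the autophagy genes GABARAPL1 and SQSTM1, both lower. They are given as values, since none was a DEG in the edgeR test on all libraries without the block. A gene without a symbol, ENSSSCG00000014031, was among the 6 at the smallest adjusted p, with 272, 284 and 272 CPM in Tg3 and 224, 239 and 228 CPM in WT (log2 fold change 0.26, SE 0.040). With 3 libraries against 3, an exact two-sided permutation test of a single gene cannot go below p = 0.1.

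PWP2, a component of the small subunit processome that assembles the small ribosomal subunit, was at 59.2, 59.1 and 57.1 CPM in the Tg3 libraries and at 49.6, 47.8 and 44.9 CPM in the WT libraries. Its log2 fold change was 0.30 (SE 0.047, adjusted p in edgeR 0.0532), and no WT library reached the lowest Tg3 library. DKC1, the pseudouridine synthase of box H/ACA particles and of telomerase, was at 90.1, 87.6 and 83.8 CPM in Tg3 and at 70.1, 74.6 and 69.5 CPM in WT, a log2 fold change of 0.29 (SE 0.047, adjusted p in edgeR 0.0532). POLR1B, the second largest subunit of RNA polymerase I, was at 93.9, 92.1 and 93.3 CPM in Tg3 and at 82.5, 79.7 and 75.5 CPM in WT, with a log2 fold change of 0.23 (SE 0.038, adjusted p in edgeR 0.0532). The 3 genes thus lay 17.5% to 23.3% above WT, and for each of them the Tg3 libraries differed from one another by less than the gap to WT.

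MARVELD1, a MARVEL domain protein, had the largest fold change of the 10 named genes that were higher. It was at 7.75, 8.64 and 8.92 CPM in Tg3 and at 5.26, 5.05 and 5.43 CPM in WT, a log2 fold change of 0.69 (SE 0.11). Its mean in NC was 7.49 CPM, nearer to Tg3 than to WT. TRMT61A, the catalytic subunit of the tRNA m1A methyltransferase, was at 33.1, 30.6 and 28.6 CPM in Tg3 and at 23.8, 24.6 and 23.4 CPM in WT (log2 fold change 0.36, SE 0.058). The remaining named genes of this direction were RRP12, TSR1 and DDX21, which act in ribosome assembly, the desmosomal plaque gene PKP3 and the thioredoxin-like gene NXN, with log2 fold changes of 0.22, 0.33, 0.25, 0.22 and 0.20. None of these 5 overlapped between the groups, and their adjusted p in edgeR was 0.0633.

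PLCD1, a phospholipase C that cleaves phosphatidylinositol bisphosphate, was at 17.4, 17.5 and 18.4 CPM in Tg3 and at 22.7, 25.0 and 24.4 CPM in WT. This is a log2 fold change of -0.43 (SE 0.077, adjusted p in edgeR 0.0633), with every Tg3 library below every WT library. GABARAPL1, a member of the ATG8 family of autophagosome proteins, was at 65.4, 67.8 and 65.5 CPM in Tg3 and at 81.2, 74.1 and 84.9 CPM in WT (log2 fold change -0.27, SE 0.052). SQSTM1, the autophagy receptor p62, was at 435, 424 and 440 CPM in Tg3 and at 518, 483 and 524 CPM in WT (log2 fold change -0.23, SE 0.046). For both autophagy genes WT replicate 2 was the WT library nearest to Tg3 without reaching it.

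EXD3, a gene with a 3'-5' exonuclease domain, was at 4.49, 3.79 and 4.82 CPM in Tg3 and at 6.80, 6.06 and 7.75 CPM in WT, a log2 fold change of -0.65 (SE 0.13) that was the largest of the 10 named genes that were lower. PRSS22, a serine protease, was at 8.48, 8.39 and 8.76 CPM in Tg3 and at 11.8, 11.2 and 12.7 CPM in WT (log2 fold change -0.48, SE 0.10). The peroxiredoxin PRDX6 had a smaller difference of -0.16 (SE 0.035) on the log2 scale at a level of 184 ± 4.88 CPM (SD, n = 3) in Tg3 and 206 ± 6.62 CPM (SD, n = 3) in WT. INKA2, ZNF672, CNDP1, which encodes a dipeptidase, and YIPF1 lay between -0.28 and -0.24, also without overlap. Adjusted p-values in edgeR for the 10 genes were between 0.0633 and 0.0977.

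**Figure D2:**
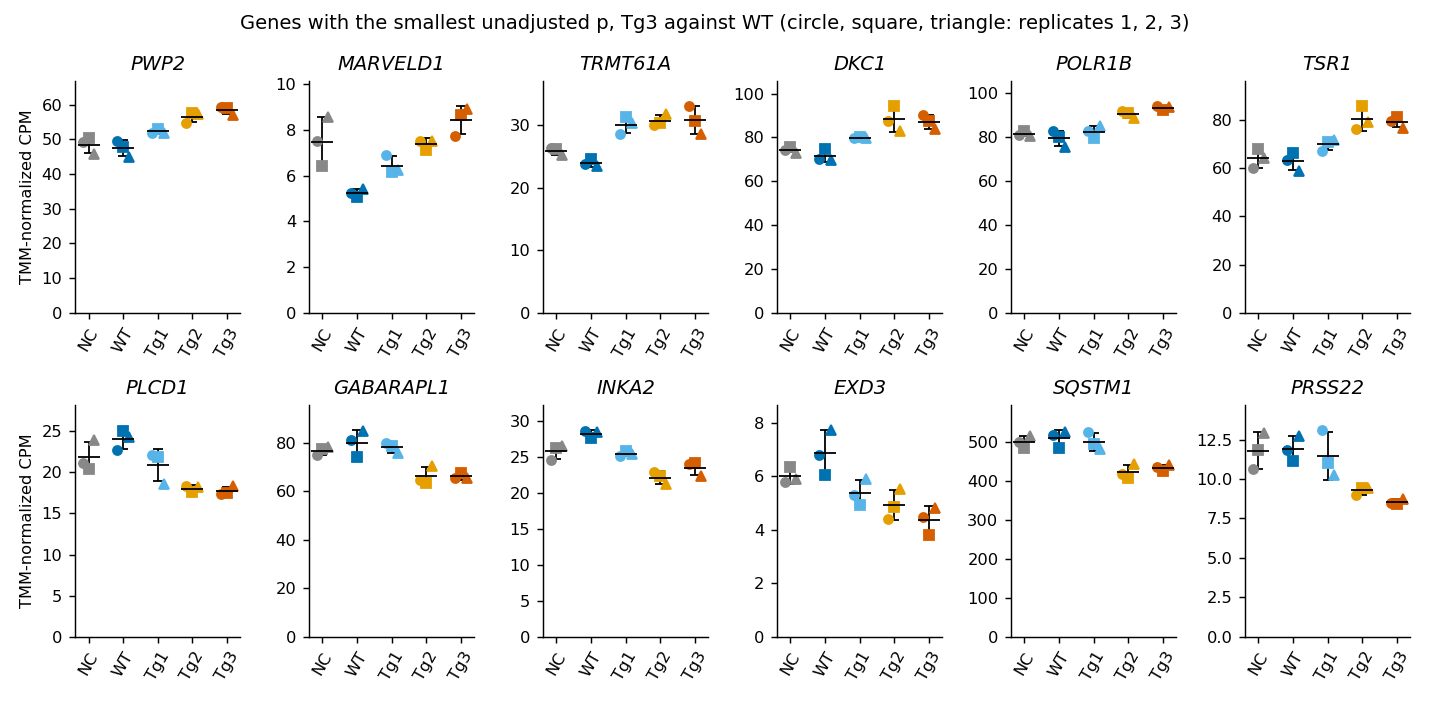
TMM-normalized CPM (vertical axis, from 0) of 12 named genes in each of the 15 libraries by plasmid, with the mean and SD over 3 libraries in black and replicates 1, 2 and 3 as circle, square and triangle. In the upper row all Tg3 libraries are above all WT libraries (PWP2 57.1 or more against 49.6 or less), and in the lower row all are below (PLCD1 18.4 or less against 22.7 or more).

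The 20 named genes also place Tg3 beside the other plasmids. Against the mean of Tg1 and Tg2, edgeR called no gene as a DEG (0%), and 1053 genes (9.11%) had an unadjusted p under 0.05, with a smallest adjusted p of 0.133. DESeq2 called 9. The mean of DKC1 in Tg3, 87.1 CPM, lay beside 88.3 CPM for Tg2, 79.8 for Tg1, 74.4 for NC and 71.4 for WT. That of GABARAPL1 was 66.2 CPM in Tg3 and likewise 66.2 in Tg2, with 78.2 in Tg1, 76.9 in NC and 80.1 in WT. Among these 20 genes the smallest adjusted p in edgeR for this comparison was 0.178, for DDX21, which differed by 0.19 (SE 0.039) on the log2 scale from the mean of Tg1 and Tg2. DMXL1, a member of the list of chromatin and long-transcript regulators, was among the genes that shared the smallest of all, 0.133 in edgeR, and differed by 0.23 (SE 0.037). All 29 tested members of that list were higher in value in Tg3 than in the mean of Tg1 and Tg2, with a median of 0.15, against -0.0030 over all genes. The summed level of the list was lowest in Tg1, at 1728 to 1907 CPM. It was 2145 to 2204 CPM in Tg3, 2032 to 2210 in Tg2, 2024 to 2133 in WT and 2177 to 2204 in NC. Tg3 thus overlapped Tg2 and NC, and against NC only 5 of the 29 were higher in Tg3 (median -0.069).

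Members of 20 gene lists were examined next, and members named beyond the 4 with the smallest p-values of each list were chosen after their values were seen. Ribosome biogenesis had the largest share of members whose libraries did not overlap. Making ribosomes begins with RNA polymerase I in the nucleolus and goes on through the modification, cleavage and assembly of the pre-ribosomal RNA. All 32 genes of the list were tested. None was a DEG, 28 had an unadjusted p under 0.05 with Tg3 higher (87.5%, against 9.63% of all genes) and 1 with Tg3 lower. All Tg3 libraries were above all WT libraries for 27 members (84.4%, against 10.3% of all genes), and the median log2 fold change was 0.19, against 0.0020 over all genes tested. When WT replicate 2 was left out the median was 0.21, and 11 members were called as higher and 1 as lower, against 7.25% and 4.18% of all genes. On all libraries, DESeq2 and the replicate block each called 7 members as higher and 0 as lower. Over all 11553 genes DESeq2 called 54 as higher and the block 52.

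By role, the RNA polymerase I subunits POLR1A and POLR1B differed by 0.19 and 0.23 on the log2 scale. Among the box C/D proteins, which guide methylation of the RNA, NOP56 was at 138, 133 and 129 CPM in Tg3 and at 108, 120 and 94.2 CPM in WT, a difference of 0.31 (SE 0.074). NOP58 differed by 0.17 and fibrillarin (FBL), the methyltransferase itself, by 0.12. Of the nucleolar proteins, nucleolin (NCL) was at 695, 733 and 693 CPM in Tg3 and at 618, 627 and 626 CPM in WT (log2 fold change 0.18, SE 0.045), whereas nucleophosmin (NPM1) was at 917, 918 and 919 CPM against 914, 902 and 881 CPM (log2 fold change 0.030, SE 0.037). Among the members that were higher, the largest differences were those of RRP8, a methyltransferase of the large subunit RNA, with 0.43 (SE 0.093), and GRWD1, a chaperone of a ribosomal protein, with 0.34 (SE 0.064). These factors were higher in Tg3 by different amounts, and NPM1 by less than its standard error.

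Only WDR43 and DDX27 were lower in Tg3. WDR43, part of the small subunit processome, was at 20.2, 15.1 and 21.2 CPM in Tg3 and at 26.6, 21.4 and 28.1 CPM in WT, a difference of -0.43 (SE 0.16). The helicase gene DDX27 was at 22.1, 19.8 and 24.7 CPM against 27.9, 20.5 and 29.8 CPM (-0.23, SE 0.15), and its groups overlapped. The medians of the list in the comparisons that share these libraries were 0.18 for Tg3 against NC, -0.020 for WT against NC, 0.17 for the mean of Tg1 and Tg2 against WT and 0.043 for Tg3 against the mean of Tg1 and Tg2.

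**Figure D3:**
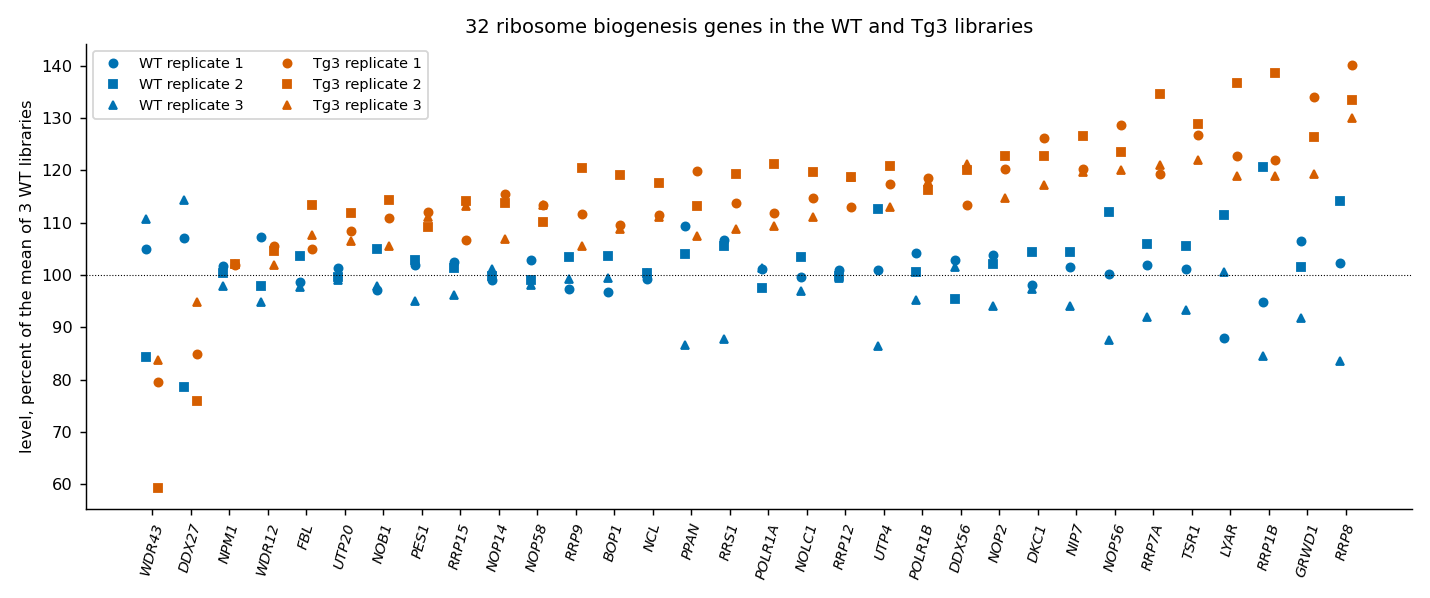
Level of the 32 ribosome biogenesis genes in the WT (blue) and Tg3 (orange) libraries, as a percent of the mean of the 3 WT libraries (vertical axis), with genes ordered by their log2 fold change. For 27 genes every Tg3 library is above every WT library, while WDR43 and DDX27 at the left are lower in Tg3.

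In the list of cell cycle and proliferation, 25 of 37 tested members were higher in Tg3 in value and 12 lower. Of the 37, 16 had an unadjusted p under 0.05 with Tg3 higher (43.2%, against 9.63% of all genes) and 15 did not overlap with Tg3 higher (40.5%, against 10.3% of all genes). The median was 0.054, and no member was a DEG. The MCM genes code for the helicase that opens replication origins. MCM3 was at 75.1, 81.4 and 76.0 CPM in Tg3 and at 59.2, 67.7 and 58.7 CPM in WT, a log2 fold change of 0.33 (SE 0.068, adjusted p in edgeR 0.0853). MCM6 was at 133, 136 and 131 CPM against 118, 114 and 120 CPM (0.18, SE 0.040), and MCM10 at 45.4, 49.0 and 43.6 CPM against 35.4, 40.9 and 31.2 CPM (0.36, SE 0.092). MCM2, MCM4, MCM5 and MCM7 differed by 0.14 to 0.26, and none of the 7 MCM genes overlapped between the groups.

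The E2F factor E2F7, a repressor of the E2F targets, was at 58.5, 59.4 and 54.9 CPM in Tg3 and at 49.2, 44.8 and 47.8 CPM in WT (0.28, SE 0.058). The sliding clamp PCNA differed by 0.25 (SE 0.073) and the G1/S cyclin CCNE2 by 0.36 (SE 0.11). The mitotic genes CDK1, CCNB1, CDC20, PLK1 and TOP2A differed by between -0.014 and 0.039, and their libraries overlapped. CDKN1B, the cyclin-dependent kinase inhibitor p27, was at 35.8, 32.9 and 34.4 CPM in Tg3 and at 38.8, 37.6 and 40.0 CPM in WT (-0.18, SE 0.044), below WT in every library. Without WT replicate 2, 8 members of the list were called as higher and 1, CDC25B, as lower, against 7.25% and 4.18% of all genes, and the median was 0.14.

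Of the tested proximal tubule transport genes, 18 were lower in Tg3 in value and 3 higher. These genes reclaim phosphate, glucose, water, ions and filtered protein from the tubule lumen, which is among the functions of the cells from which the line was taken. Of 21 tested members, 10 had an unadjusted p under 0.05 with Tg3 lower (47.6%, against 9.55% of all genes), 10 were lower in every Tg3 library than in every WT library (47.6%, against 10.3%), and the median was -0.18. None was a DEG, and without WT replicate 2, 8 were called as lower and 2 as higher, against 4.18% and 7.25% of all genes, with a median of -0.24. Proximal tubule markers outside this list went both ways. Without TMM factors, DPP4, ENPEP and ALPL were above WT replicates 1 and 3 in every Tg3 library, with WT replicate 2 inside the Tg3 range. DPP4 was at 174, 198 and 174 CPM in Tg3 and at 155, 179 and 137 CPM in WT. ANPEP, VIL1 and PDZK1 were below WT replicates 1 and 3 in every Tg3 library. In RNA from whole wells, fewer cells that express a gene and less RNA of the gene per cell cannot be told apart.

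The sodium-phosphate cotransporter SLC34A1 was at 53.1, 45.3 and 55.9 CPM in Tg3 and at 68.7, 60.6 and 73.3 CPM in WT, a log2 fold change of -0.39 (SE 0.10, adjusted p in edgeR 0.113). The sodium-glucose cotransporter SLC5A2 was at 72.4, 68.6 and 68.0 CPM against 82.2, 78.8 and 94.3 CPM (-0.29, SE 0.080). The water channel AQP1 was at 233, 201 and 240 CPM against 322, 256 and 333 CPM (-0.44, SE 0.14), and the cation exporter SLC47A2 at 5.71, 5.51 and 5.24 CPM against 8.52, 6.75 and 9.07 CPM (-0.57, SE 0.16). In each of these 4 genes the groups did not overlap, and WT replicate 2 was the lowest WT library.

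Among the genes of protein uptake, the endocytic adaptor DAB2 differed by -0.29 (SE 0.082) and its receptor partner megalin (LRP2) by -0.20 (SE 0.084), both without overlap, whereas cubilin (CUBN) differed by -0.062 and overlapped. The dicarboxylate transporter SLC13A3 and the folate receptor FOLR1 went the other way. FOLR1 was at 8.44, 11.3 and 7.58 CPM in Tg3 and at 5.12, 8.03 and 3.90 CPM in WT, a log2 fold change of 0.67 (SE 0.24), with WT replicate 2 inside the Tg3 range. The median of the list was -0.25 for Tg3 against NC and -0.012 for WT against NC. It was -0.21 for the mean of Tg1 and Tg2 against WT and -0.036 for Tg3 against the mean of Tg1 and Tg2.

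The 13 transcripts encoded by mitochondrial DNA were all lower in Tg3 in value, with a median of -0.19. Of these, 7 had an unadjusted p under 0.05 (53.8%, against 9.55% of all genes), but just CYTB and COX3 did not overlap between the groups (15.4%, against 10.3% of all genes). CYTB, of respiratory complex III, was at 762, 576 and 742 CPM in Tg3 and at 977, 766 and 1011 CPM in WT (-0.40, SE 0.13), while COX1, of complex IV, was at 16510, 15810 and 15860 CPM against 16230, 16330 and 15920 CPM (-0.0086, SE 0.030). Replicate 2 was the lowest library for CYTB in both groups. The median was -0.29 without WT replicate 2, and 6 were called as lower, against 4.18% of all genes. For the mean of Tg1 and Tg2 against WT the median was -0.15, and for Tg3 against that mean -0.032.

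Interferon response genes had the largest median difference of the 20 lists, with WT replicate 2 close to Tg3. Interferons induce these antiviral genes once cells sense foreign nucleic acid. Of 51 genes 48 were tested, and all 48 were higher in Tg3 in value, with a median log2 fold change of 0.42. An unadjusted p under 0.05 was reached by 12 (25%, against 9.63% of all genes), and the libraries did not overlap for 1, the chemokine gene CXCL9 (2.08%, against 10.3%). For the other 47, WT replicate 2 alone reached the Tg3 range while WT replicates 1 and 3 stayed below it, which held for 1969 of the 11553 genes tested.

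OASL, which promotes the sensing of viral RNA by RIG-I, was at 296, 378 and 270 CPM in Tg3 and at 144, 300 and 95.1 CPM in WT, with a log2 fold change of 0.81 (SE 0.35, adjusted p in edgeR 0.234). ISG15, a ubiquitin-like modifier, was at 2359, 2892 and 2066 CPM against 1342, 2625 and 949 CPM (0.57, SE 0.31), and IFI6 at 953, 1088 and 888 CPM against 630, 958 and 488 CPM (0.50, SE 0.21). CXCL10, a chemokine that attracts T cells, was at 459, 650 and 428 CPM against 199, 557 and 120 CPM. In each of them replicate 2 was the highest library of both groups, and the range of the WT libraries was larger than the gap between the group means.

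Without WT replicate 2, 44 of the 48 interferon genes were called as higher in Tg3 (against 7.25% of all genes), with a median of 0.74 and log2 fold changes of 1.40 (SE 0.29) for OASL and 0.80 (SE 0.17) for IFI6. On all libraries, DESeq2 and the replicate block each called 0 of the 48. Replicate 2 had the highest mean log2 level of the list in both groups, at 0.254 in WT and 0.361 in Tg3 relative to the 15 libraries. Its omission from WT alone therefore widens the difference. Replicates 1 and 3 were at 0.121 and 0.013 in Tg3 and at -0.463 and -0.85 in WT. The list thus stayed higher in Tg3 when replicate 2 of both groups was set aside. The edgeR fit without replicate 2 of both groups called only 7 genes over all genes tested. That fit had fewer libraries in each group, and its count is not a result about this list. The summed level of the list was 31590 to 41230 CPM in Tg3, 16810 to 38340 in WT and 21590 to 32360 in NC, with 27030 to 37350 for Tg1 and 33830 to 48710 for Tg2. Levels of this list thus varied between wells of the same plasmid, NC included, and the part of this variation in the other differences was not tested. The plot of list levels gives 6 of the lists in each library.

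**Figure D4:**
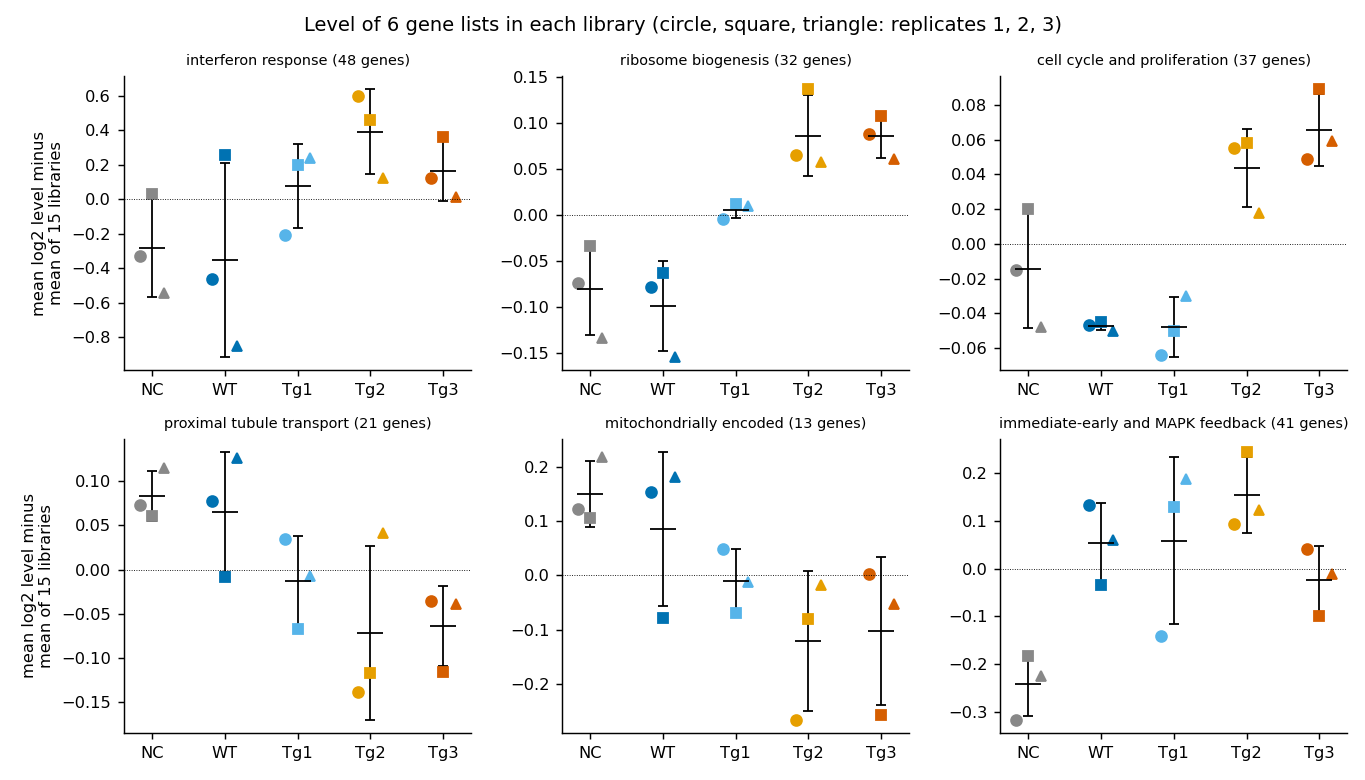
Mean over the tested members of 6 lists of log2(CPM + 0.5) minus the mean of the 15 libraries (vertical axis, log2 units), by plasmid, with the mean and SD over 3 libraries in black and replicates 1, 2 and 3 as circle, square and triangle. For interferon response WT replicate 2 is at 0.254 and the Tg3 libraries are between 0.013 and 0.361, while for ribosome biogenesis the WT libraries end at -0.063 and the Tg3 libraries start at 0.061.

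Antigen presentation and NF-kappa B targets followed the same pattern in part. All 17 tested genes of antigen processing and the immunoproteasome were higher in Tg3 in value (median 0.27). None was free of overlap, and in all 17 WT replicate 2 alone reached the Tg3 range. HLA-DRA, a class II chain, was at 100, 112 and 88.8 CPM in Tg3 and at 64.7, 91.7 and 53.2 CPM in WT (0.52, SE 0.19). Of 29 tested targets of TNF and NF-kappa B, 28 were higher in value (median 0.23). An unadjusted p under 0.05 with Tg3 higher was reached by 10 (34.5%, against 9.63% of all genes). The libraries of 7 did not overlap (24.1%, against 10.3%), and in 19 of the 29 WT replicate 2 alone reached the Tg3 range. The NF-kappa B subunit RELB was at 53.1, 57.6 and 52.9 CPM in Tg3 and at 47.8, 48.6 and 45.2 CPM in WT (0.21, SE 0.055). TNFAIP3, which restrains the pathway, was at 74.8, 81.6 and 75.8 CPM against 63.8, 68.5 and 58.4 CPM (0.28, SE 0.081), and the neutrophil chemokine CXCL8 at 55.3, 55.1 and 56.3 CPM against 48.4, 46.2 and 39.4 CPM (0.32, SE 0.12). For these 3 genes, which are among the 7 without overlap, the WT libraries, replicate 2 included, all lay below Tg3. Without WT replicate 2, 14 antigen processing genes (median 0.47) and 16 targets of TNF and NF-kappa B (median 0.35) were called as higher, against 7.25% of all genes, and none as lower. For the mean of Tg1 and Tg2 against WT the medians of these lists were 0.35 and 0.28, and for Tg3 against that mean -0.070 and -0.072.

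The study compared each genotype with NC and named MYC, ADM and IER3, so these were examined between Tg3 and WT. The proto-oncogene MYC was at 293, 281 and 274 CPM in Tg3 and at 301, 262 and 273 CPM in WT, a log2 fold change of 0.021 (SE 0.067, adjusted p in edgeR 0.876). The vasodilator peptide gene ADM was at 90.7, 88.8 and 84.6 CPM against 87.6, 94.4 and 79.0 CPM (0.017, SE 0.093), and IER3 at 259, 230 and 249 CPM against 284, 223 and 278 CPM (-0.089, SE 0.091). The groups overlapped for all 3, the differences were smaller than their standard errors, and the signs of MYC and ADM depended on which library was left out. Set against NC, Tg3 had log2 fold changes of 0.32 (MYC), 0.37 (ADM) and 0.40 (IER3), with adjusted p-values in edgeR of 0.143, 0.144 and 0.144.

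Other immediate-early genes, which growth factors and stress induce within minutes, went both ways, with 20 of 41 tested genes higher in Tg3 in value. Of the 41, 12 had an unadjusted p under 0.05 with Tg3 lower (29.3%, against 9.55% of all genes) and 2 with Tg3 higher. Only 3 were lower without overlap (7.32%) and 1 higher (2.44%), against 10.3% of all genes in each direction. WT replicate 2 alone reached the Tg3 range in 16 that were otherwise lower in Tg3 and in 12 that were otherwise higher. Over all 11553 genes this held for 1830 and 1969. ATF3, a stress-induced repressor, was at 289, 252 and 276 CPM in Tg3 and at 450, 289 and 515 CPM in WT (-0.62, SE 0.16, adjusted p in edgeR 0.112). NR4A2, an orphan nuclear receptor, was at 12.4, 11.9 and 12.5 CPM against 16.95, 13.5 and 19.8 CPM (-0.45, SE 0.12). Its relative NR4A1 was at 150, 86.1 and 152 CPM against 315, 116 and 347 CPM (-1.0, SE 0.34), and FOS at 604, 422 and 618 CPM against 838, 524 and 861 CPM (-0.44, SE 0.19). Libraries did not overlap for NR4A2. For ATF3 they nearly met, with WT replicate 2 at 289.1 CPM and Tg3 replicate 1 at 288.5 CPM, and for NR4A1 and FOS WT replicate 2 fell inside the Tg3 range. Against NC, ATF3 differed by 0.032 and FOS by -0.0030 in Tg3. Most of the list was above NC, with a median of 0.25 for Tg3 (35 of 41 higher) and 0.27 for WT (36 of 41 higher). Without WT replicate 2, 17 members were called as lower and 5 as higher, against 4.18% and 7.25% of all genes, and the median moved from -0.067 to -0.12.

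Of 38 tested genes tied to polycystic kidney disease and the primary cilium, where polycystin-2 acts, 7 were higher and 31 lower in value, with a median of -0.085, and 7 were lower in every Tg3 library than in every WT library (18.4%, against 10.3% of all genes). Pig PKD1, which encodes polycystin-1, was at 90.7, 89.1 and 85.3 CPM in Tg3 and at 82.0, 76.6 and 76.7 CPM in WT (0.17, SE 0.067, adjusted p in edgeR 0.205), without overlap. PKHD1, the gene of recessive polycystic kidney disease, was at 162, 154 and 157 CPM against 173, 147 and 171 CPM (-0.051, SE 0.071). DZIP1L, a ciliary transition zone gene that is also mutated in recessive disease, was at 54.2, 51.1 and 51.6 CPM against 63.7, 59.4 and 64.9 CPM (-0.26, SE 0.064), and WDR19, of the retrograde transport complex of the cilium, at 13.6, 14.6 and 13.4 CPM against 16.95, 15.1 and 18.5 CPM (-0.29, SE 0.075). GANAB and DNAJB11, which cause atypical disease, differed by -0.046 and -0.072 and overlapped. The median of the list was -0.13 without WT replicate 2, and 6 members were called as lower, against 4.18% of all genes, and none as higher. For the mean of Tg1 and Tg2 against WT the median was -0.099, and for Tg3 against that mean -0.018.

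Calcium and cAMP signalling, which are altered in ADPKD cells, had medians of 0.011 and -0.022. The calcineurin regulator RCAN1 was the member of the calcium list with the largest difference, at 223, 177 and 211 CPM in Tg3 and at 351, 198 and 387 CPM in WT (-0.62, SE 0.18). WT replicate 2 lay inside the Tg3 range. The mitochondrial calcium uniporter MCU was at 89.0, 94.2 and 87.7 CPM against 78.3, 85.2 and 74.7 CPM (0.19), without overlap. Among the cAMP genes, the anchoring protein gene AKAP1 was at 56.6, 57.6 and 53.8 CPM against 44.1, 51.8 and 38.5 CPM (0.32), without overlap, and ADCY3 and PDE1A were lower in Tg3 without overlap. The medians were -0.011 and -0.045 without WT replicate 2, so that the sign of the calcium list turned, with 3 calcium genes called as higher and 3 as lower and 4 cAMP genes as higher and 1 as lower, against 7.25% and 4.18% of all genes.

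**Figure D5:**
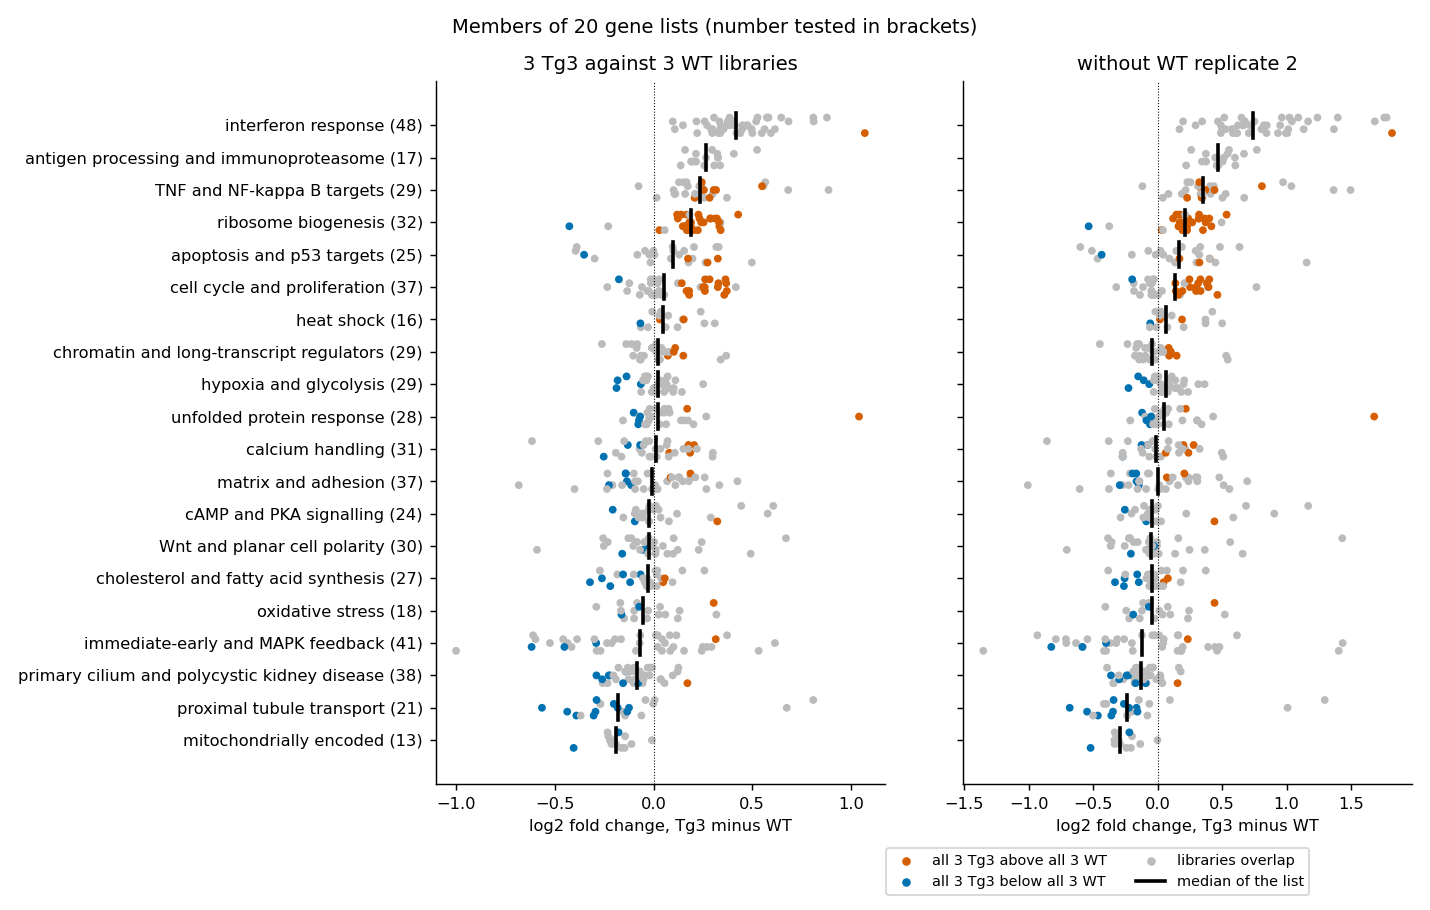
Log2 fold change of Tg3 minus WT (horizontal axis) for each tested member of 20 gene lists, on all 6 libraries (left) and without WT replicate 2 (right), with black bars at the list medians, orange and blue for members whose Tg3 libraries are all above or all below the 3 WT libraries, and grey for members that overlap. Interferon response has the highest median (0.42, and 0.74 without WT replicate 2) with 1 member free of overlap, whereas ribosome biogenesis (median 0.19) has 27 above WT.

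In the other 9 lists the medians lay between -0.053 and 0.10, and between -0.049 and 0.17 without WT replicate 2. In the list of apoptosis and p53 targets, TP53INP1, a p53 target that also promotes autophagy, was at 203, 181 and 209 CPM in Tg3 and at 258, 223 and 277 CPM in WT (-0.35, SE 0.081), and the death receptor gene TNFRSF21 at 206, 210 and 188 CPM against 170, 178 and 152 CPM (0.27). Of 27 genes of cholesterol and fatty acid synthesis, 6 were lower in Tg3 without overlap (22.2%) and 2 higher (7.41%), against 10.3% of all genes in each direction. TM7SF2, a sterol reductase gene, was at 53.6, 50.0 and 49.9 CPM against 59.9, 63.2 and 68.8 CPM (-0.32, SE 0.091). In the list of matrix and adhesion, 5 of 37 genes were lower without overlap (13.5%) and 2 higher (5.41%), against 10.3% of all genes in each direction. TIMP3, COL4A2, LAMB2 and FN1 were lower without overlap, with log2 fold changes of -0.14, -0.14, -0.23 and -0.14, LOXL4 was higher without overlap (0.19), and CCN2 was at 78.0, 54.0 and 76.3 CPM against 136, 55.3 and 144 CPM and overlapped through WT replicate 2. The unfolded protein response sensor ERN1 was at 2.72, 3.39 and 2.64 CPM against 0.885, 2.43 and 0.920 CPM (1.04, SE 0.39), near the filter on low counts. Its means were 1.41 CPM in WT and 1.55 in NC, so it passed the filter through Tg1 (2.44), Tg2 (3.89) and Tg3 (2.92), and DESeq2 gave it no adjusted p. Of the 28 tested genes of the unfolded protein response list, DNAJC3 alone joined ERN1 at an unadjusted p under 0.05.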

How the data were processed

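RNA-seq of LLC-PK1 cells was analysed from the deposited gene-level estimated counts, which the authors made with Salmon 0.14.1 against Ensembl release 98 pig cDNA and gave as whole numbers without normalization. How transcripts were summed to genes is not given in the sources used here. Groups and replicate numbers came from the labels, where WT and Tg3 titles share a genotype number and the bracketed name sets the group. The 11553 genes (of 16660, holding 99.8% of counts) whose CPM averaged at least 2 were fitted in R 4.3.3 with edgeR 4.0.16 (TMM, glmQLFit and glmQLFTest, 1 model of group means over all libraries, so that the groups share 1 estimate of spread). DESeq2 1.42.0, its size factors, other filters, a fit of 6 libraries, the omission of each library and a block by replicate number were the alternatives. Depth was 20216200 to 26132196 counts per library.

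The comparison, the gene lists and the tests were chosen with earlier results of these data known. Named genes were the DEGs with a symbol, filled up to 10 in each direction by the smallest unadjusted p, up to 4 members of each list, and MYC, ADM, IER3, PKD1 and PKHD1. Symbols came from the supplementary tables of the study (1437 identifiers) and a table of gene names, giving 10185 of the tested genes a symbol, and genes whose 2 symbols disagreed were not named. Transcripts of gene families can share reads. Some list members are not reported here by name. On simulated counts for Tg3 against WT over 11553 genes, edgeR recovered 100% of 100 genes with a true log2 change of 1 and 89% of 100 with 0.5, with 6 false calls. The simulation gave all genes 1 spread between replicates (dispersion 0.00536) and held no replicate effect or outlying library. Its recovery therefore does not give the power of the real comparison, where WT replicate 2 stood apart.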

Additional observations from a re-analysis of the deposited data

How the results depend on the processing

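The count of DEGs between Tg3 and WT stayed at 0 with DESeq2 size factors, without a filter on low counts, with filterByExpr, with no fold change threshold and with the Tg3 and WT libraries alone. It was 116 with DESeq2, and it ranged from 0 to 1321 when 1 library was left out, with 1 DEG without WT replicate 1 and 1321 without WT replicate 2. The replicate number as a block gave 111. Deviations of same-numbered Tg3 and WT libraries from their group means correlated at 0.0915, 0.521 and 0.352. Tg3 replicates 2 and 3 correlated best with the WT library of their own number, and Tg3 replicate 1 with WT replicate 3 (0.124). The main test did not pair the numbers, and a replicate effect shared by the groups was examined by the block alone. Of settings chosen after the data were seen, the replicate block on the 6 libraries gave 506, leaving out replicate 2 of both groups 7, and DESeq2 without WT replicate 2 1484. DESeq2, the block and the fit without WT replicate 2 shared 84 genes, 42 of them higher in Tg3, and DESeq2 gave no adjusted p for 1120 genes. Tg3 against the mean of Tg1 and Tg2 gave 9 with DESeq2 and 0 with the block and in each fit without 1 library. Of 100 named genes, none turned direction with DESeq2, its size factors, the filters or the block. MYC turned to -0.018 without replicate 2 of both groups, to -0.022 with DESeq2 and no WT replicate 2, and it ranged from -0.021 to 0.079 with 1 library left out, with -0.004 without Tg3 replicate 1. ADM ranged from -0.047 to 0.08, with -0.004 without Tg3 replicate 1. Replicates differed by more than counting noise, with at least 2.9 for their chi-square per degree of freedom.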

Other observations

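Genes outside the named lists also differed in the fits that called DEGs. Ceruloplasmin (CP), a copper-carrying ferroxidase, was at 35.3 CPM on average in Tg3 and at 23.0 in WT, and D-amino acid oxidase (DAO), a peroxisomal enzyme of the proximal tubule, at 54.3 and 79.8 CPM. Their log2 fold changes were 0.62 (SE 0.17) and -0.55 (SE 0.16), without overlap between the groups. Both were called by DESeq2 on all libraries and by edgeR without WT replicate 2, as were ORC1, a subunit of the origin recognition complex (0.34, SE 0.081), ULK1, the kinase that starts autophagy (-0.39, SE 0.11), and FOSL2, an AP-1 subunit (-0.36, SE 0.090). These genes were chosen after their values were seen, and none was a DEG in edgeR on all libraries without the block.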
